A study of Mus musculus with 11 samples.

Results

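Neurospheres are free-floating balls of stem and progenitor cells that grow from dissociated brain tissue in the presence of mitogens. The 6 libraries described here were chosen by their labels, 3 wild-type and 3 Bmal1-/- neurosphere libraries, out of 11 libraries in the series; the other 5 come from corpus callosum and are not described. Cells of the subventricular zone (SVZ), a stem cell niche along the lateral ventricle, were taken from mice aged 8 to 10 weeks and dissociated mechanically. Both genotypes were then grown for 1 week in a mouse neural stem cell expansion medium with EGF at 20 ng/ml and heparin at 2 ug/ml, and total RNA of the primary neurospheres was extracted with TRIzol and sequenced on a BGISEQ-500 instrument. The knockout is labelled Bmal1-/- with no further detail of the allele, the strain, the sex or the number of mice, and no cell type limits it in the label. The labels do not say whether replicates came from separate mice or cultures, so the p-values below are set by how much these particular libraries vary, and that variation may be technical.

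BMAL1, whose gene is listed in the files under its older symbol Arntl, is a transcription factor of the circadian clock. It pairs with CLOCK or the related NPAS2 and binds E-box elements in the genes of its own repressors, the PER and CRY proteins, and of the nuclear receptors REV-ERB alpha (Nr1d1) and REV-ERB beta (Nr1d2). REV-ERBs and the opposing ROR receptors act in turn on Arntl, Npas2, Clock, Cry1 and Nfil3. In adult neurogenic tissue the clock is known for its part in the timing of progenitor cell division.

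Reads assigned to genes ranged from 17450270 in Bmal1-/- replicate 1 to 19717848 in wild-type replicate 3, and from 16743 to 17076 genes had at least 1 count. One library stood apart. In Bmal1-/- replicate 1, 22.6% of reads were unmapped, against 13.7% to 16.2% in the other 5 libraries. Its log2 deviation from the mean of the others fell with transcript length, with a Spearman correlation across 13898 genes of -0.67, while it lay between 0.22 and 0.44 in the others (genes are not independent replicates). In 10 classes of genes by length, the median deviation in that library went from 0.82 for the shortest length class to -1.02 for the longest class. It differed at least 2-fold from the mean of its own group's other libraries at 2360 genes, 16.9% of those tested, and the others did so at 142 to 763 genes. Xist, the RNA of the inactive X chromosome, read 726 to 3083 CPM and was lowest in Bmal1-/- replicate 1, and the Y-linked Eif2s3y, Kdm5d and Uty had 0 counts in all 6 (Ddx3y, a relative of the X-linked Ddx3x, was not at 0 in every library but stayed under 1 CPM in all 6). Wild-type replicate 1 also differed from its group in several clock and S phase genes, which is given beside those results. Tests are therefore given with all 6 libraries and with the 5 that remain without Bmal1-/- replicate 1, and for some genes with 4, both replicate 1 libraries left out. Wild-type replicate 1 differed at least 2-fold from the mean of its group's other libraries at 4.83% of genes. The share of Bmal1-/- replicate 3, which was kept, was 5.46%, but against a mean that includes Bmal1-/- replicate 1. These shares therefore do not rank the libraries. The chi-square of counts per degree of freedom was 36.8 and 48.4 for wild-type replicate 1 against wild-type replicates 2 and 3. It was 7.12 between wild-type replicates 2 and 3 and 14.0 between Bmal1-/- replicates 2 and 3. The comparison of 4 libraries was singled out among those that leave out a library with the clock and S phase values of wild-type replicate 1 known, so its calls in such genes are a description and no independent evidence.

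**Figure D1:**
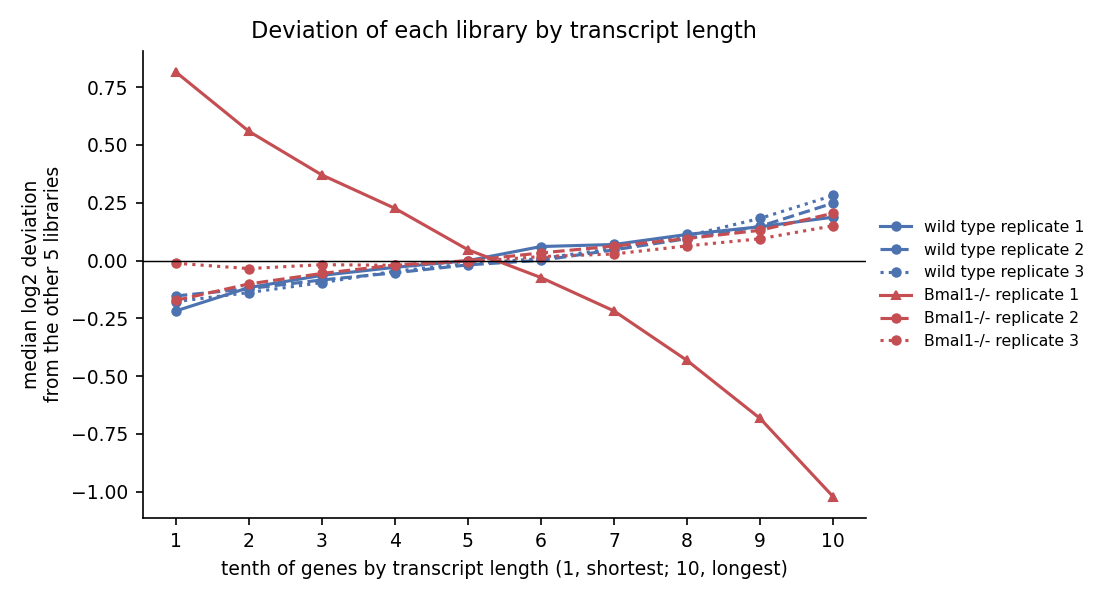
Median log2 deviation of each neurosphere library from the mean of the other 5 (y axis) in 10 equal classes of the tested genes by transcript length (x axis). Bmal1-/- replicate 1 runs from 0.82 in the shortest class to -1.02 in the longest, and the other 5 libraries stay between -0.22 and 0.28.

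With all 6 libraries, edgeR's quasi-likelihood test with Benjamini-Hochberg adjustment called 1 of 13968 genes at an adjusted p under 0.05, which is 0.00716% of the genes tested. The called gene was Nr1d2, which fell. An unadjusted p under 0.05 was given by 422 genes (3.02%), 273 with higher (1.95%) and 149 with lower values (1.07%) in Bmal1-/-. Without Bmal1-/- replicate 1 the same test called 5 of 14094 genes, 0.0355%: Npas2, Ucp2 and Arhgef3 rose (0.0213%), and Nr1d2 and Inpp4b fell (0.0142%). In that comparison 547 genes, 3.88%, had an unadjusted p under 0.05, 302 with higher (2.14%) and 245 with lower values (1.74%). With both replicate 1 libraries left out, 121 genes rose (0.869%) and 134 fell (0.962%) among 13925, 1.83% together, from 2 libraries a group, and 16.7% had an unadjusted p under 0.05. DESeq2 called 34 genes (0.243%) in 6 libraries, 20 higher (0.143%) and 14 lower (0.1%), and 44 (0.312%) in 5, 27 higher (0.192%) and 17 lower (0.121%). Among genes described below, those it called in both included Nr1d2, Npas2, Per3, Cry1, Nr1d1, Dbp, Ucp2, Arhgef3, Inpp4b, Dll4, Acta2, Cyp24a1 and Sox3. In the gene results that follow, called refers to the edgeR test unless another setting is named. Biological coefficients of variation were 0.25 with all 6 libraries and 0.152 with 5. The 2 groups of 3 did not overlap in CPM (counts scaled to the total assigned to genes in the library) at 1684 genes, 12.1% of those tested (6.23% higher and 5.83% lower in Bmal1-/-). The median log2 fold change over all genes was -0.01 in both comparisons.

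The targeted gene was read first. Arntl, on chromosome 7 at 113178471 to 113314126 of GRCm38.p6, had 45, 57.7 and 53.5 CPM in wild-type replicates 1, 2 and 3 and 48.0, 50 and 57.1 CPM in the 3 libraries labelled Bmal1-/-. The groups overlapped fully, and the log2 fold change was -0.01 ± 0.17 (SE) in 6 libraries and 0.04 ± 0.14 in 5. These counts cover the gene as a whole, and without knowledge of the allele they cannot tell if some exons are missing, so this level does not check the labels. Bmal1-/- below is the label of those libraries, and each direction is that of the libraries so labelled. Arntl2, the paralog of Arntl, had 5.67 to 9.13 CPM in wild type and 6.33 to 10.2 CPM in Bmal1-/-.

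Among the genes that BMAL1 is known to activate, Nr1d2 had the smallest p in both comparisons. The gene lies on chromosome 14 at 18204056 to 18239106. Wild-type replicates 1, 2 and 3 had 71.1, 75.5 and 75.7 CPM, and the 3 Bmal1-/- libraries 3.51, 4.96 and 4.36 CPM. Means were 74.1 ± 2.61 and 4.28 ± 0.726 CPM (SD, n = 3), a level 17.3-fold lower in Bmal1-/-. All 3 Bmal1-/- libraries lay far below all 3 wild-type libraries. The log2 fold change was -4.11 ± 0.20 (SE, edgeR adjusted p = 0.000403) in 6 libraries and -3.99 ± 0.13 (adjusted p = 0.000183) in 5, and Nr1d2 was called under all 16 settings with 6 libraries and all 15 with 5.

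Per3, a period protein gene, had 68.3, 97.5 and 113 CPM in wild type and 10.5, 20.3 and 20.9 CPM in Bmal1-/-. The groups did not overlap, and the mean was 5.39-fold lower. Its log2 fold change of -2.43 ± 0.31 in 6 libraries (edgeR adjusted p = 0.110) and -2.17 ± 0.22 in 5 (adjusted p = 0.056) missed the threshold, and it fell by 2.36 ± 0.11 in 4 (adjusted p = 1.1e-07). Cry1, a cryptochrome repressor, lay the other way round, with 38.8, 51.8 and 54.7 CPM in wild type and 85.5, 90.4 and 101 CPM in Bmal1-/-. Again the groups did not overlap, at a mean 1.91-fold higher, with edgeR adjusted p-values of 0.532 in 6 libraries, 0.291 in 5 and 0.000774 in 4.

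To show what lies next to the start of these 3 genes, the 250 bases before it were read from the RefSeq promoter table of GRCm38.p6, 5′ to 3′ on the gene's own strand. Capitals mark the letters searched on both strands: CACGTG (E-box), CACGTT (a weaker E-box form, AACGTG on the other strand), AGGTCA (core of the ROR and REV-ERB element) and TTATGTAA (D-box). The windows are chr14:18239107-18239356 for Nr1d2, chr4:151044666-151044915 for Per3 and chr10:85185055-85185304 for Cry1, all on the minus strand.
Nr1d2: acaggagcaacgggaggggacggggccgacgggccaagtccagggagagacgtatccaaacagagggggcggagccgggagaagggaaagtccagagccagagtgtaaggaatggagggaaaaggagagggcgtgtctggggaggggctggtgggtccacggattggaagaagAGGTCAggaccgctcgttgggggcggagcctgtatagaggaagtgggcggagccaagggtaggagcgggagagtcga
Per3: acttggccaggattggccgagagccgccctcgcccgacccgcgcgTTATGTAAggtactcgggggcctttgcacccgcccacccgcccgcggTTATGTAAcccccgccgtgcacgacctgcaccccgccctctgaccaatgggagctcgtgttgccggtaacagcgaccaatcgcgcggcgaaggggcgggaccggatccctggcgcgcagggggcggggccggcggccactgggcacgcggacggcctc
Cry1: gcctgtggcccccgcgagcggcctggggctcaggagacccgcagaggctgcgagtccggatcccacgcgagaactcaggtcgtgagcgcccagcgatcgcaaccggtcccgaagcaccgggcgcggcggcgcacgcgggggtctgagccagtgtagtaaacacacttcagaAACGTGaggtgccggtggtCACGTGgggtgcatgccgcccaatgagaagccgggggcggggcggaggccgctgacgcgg

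Nr1d2 held 1 AGGTCA at base 174 of this window, and Per3 held TTATGTAA at bases 46 and 93. Cry1 held AACGTG at base 172 and CACGTG at base 191, which do not overlap. Over all 32851 windows of the table, CACGTG was found in 6.02%, CACGTT in 3.85%, AGGTCA in 14.0% and TTATGTAA in 0.819%. Of the 26 clock genes listed, 21 had a window, and some had several, 30 windows in all. By gene, with a match in any of its windows, 5 held CACGTG (Per1, Cry1, Tef, Ciart and Bhlhe41), 4 CACGTT, 4 AGGTCA and 1, Per3, the D-box. These counts are by gene and the shares above by window, so they are not directly comparable. A match is a description of the letters in this window and not of binding.

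Most of the other E-box genes on the list had log2 fold changes below 0, with wide spreads. Nr1d1, encoding REV-ERB alpha, had 129, 247 and 288 CPM in wild type and 49.3, 57.7 and 65.0 CPM in Bmal1-/-, without overlap and 3.86-fold lower in the mean. Its edgeR adjusted p was 0.218 in 6 libraries and 0.364 in 5, and it fell by 2.13 on the log2 scale in 4 (adjusted p = 1.1e-07). Nr1d1 overlaps Thra on the other strand and the counts ignore strand, so reads of the 2 genes cannot be told apart where they overlap. Dbp, a PAR bZIP activator and a classical clock output gene, had 33.0, 43.1 and 66.1 CPM in wild type and 12, 13.9 and 16.2 CPM in Bmal1-/-. That was 3.38-fold lower in the mean, again without overlap (edgeR adjusted p = 0.218 in 6 libraries, 0.383 in 5 and 0.00992 in 4). Dbp overlaps its neighbour Sphk2 on the other strand, and 27.5% of the Dbp transcript's 50-base stretches also occur in Sphk2.

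Hlf, another PAR bZIP factor, had 74.5 to 95.3 CPM in wild type and 35.9, 62.4 and 70.5 CPM in Bmal1-/-, and Tef, the remaining member of that family, had 147 to 200 CPM against 86.3, 137 and 156 CPM. Neither passed the test in 6, 5 or 4 libraries. Per1 stood at 139, 236 and 267 CPM in wild type and 86.6, 150 and 156 CPM in Bmal1-/-, and Bhlhe40, encoding the E-box repressor DEC1, at 126, 422 and 439 CPM against 101, 308 and 288 CPM. In both genes the replicate 1 library of each group was the lowest, and the groups overlapped through wild-type replicate 1. Bhlhe41, encoding DEC2, showed the same order with 57.0, 127 and 152 CPM against 38.8, 78.5 and 94.8 CPM. With both replicate 1 libraries left out, Per1 fell by 0.72, Bhlhe40 fell by 0.53 and Bhlhe41 fell by 0.69 on the log2 scale (edgeR adjusted p = 0.00117, 0.00736 and 0.0129). Ciart, a clock repressor, and Usp2, a ubiquitin-specific protease, had log2 fold changes of -0.42 and -0.50 in 6 libraries and -0.20 and -0.38 in 5 and passed in none of the 3 comparisons. Per2 and Cry2 did not share the lower levels: Per2 had 49.7 to 55.7 CPM in wild type and 45.2, 75.4 and 62.3 CPM in Bmal1-/-, and Cry2 had 39.7 to 71.1 against 43.4 to 67.5 CPM. The log2 fold change of Per2 was 0.22 in 6 libraries and 0.39 in 5, and it was not called.

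Of the 15 E-box genes listed, 14 had a log2 fold change below 0 in 6 libraries and 13 in 5, with medians of -0.50 and -0.34 against -0.01 over all genes. In 6 and in 5 libraries 1 of the 15, Nr1d2, was called, and 7 were called lower in 4. None of these 15 was called higher in any of the 3. Cry1, called higher in 4 libraries, is listed here with the ROR and REV-ERB targets and is not among the 15, although CACGTG was found in its window. Lower levels in all 3 Bmal1-/- libraries than in all 3 wild-type libraries were found in 5 of the 15, against 5.83% of all genes tested.

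The genes known as targets of ROR and REV-ERB were led by Npas2, the CLOCK paralog, on chromosome 1 at 39193702 to 39363240. It had 10.1, 8.45 and 12 CPM in wild type and 34.7, 47.5 and 42.3 CPM in Bmal1-/-, 4.07-fold higher in the mean, with every Bmal1-/- library above every wild-type library. The log2 fold change was 2.02 ± 0.21 in 6 libraries (edgeR adjusted p = 0.091), and Npas2 rose by 2.14 ± 0.17 in 5 (adjusted p = 0.0184) and by 2.13 ± 0.16 in 4 (adjusted p = 3.3e-05). Clock itself had 148, 157 and 132 CPM in wild type and 76.3, 170 and 171 CPM in Bmal1-/-, so its log2 fold change was -0.07 with Bmal1-/- replicate 1 and 0.22 without. The Clock transcript is 9744 bases long. Nfil3, a D-box repressor, ranged from 9.98 CPM in wild-type replicate 1 to 38.3 CPM in wild-type replicate 3 and from 31.3 to 39.7 CPM in Bmal1-/-. Among the ROR genes, Rorb had 264, 319 and 299 CPM against 175, 223 and 243 CPM, log2 fold changes of -0.46 in 6 libraries and -0.34 in 5 that did not pass, and fell by 0.41 in 4 (edgeR adjusted p = 0.030), while the groups overlapped in Rora. Csnk1d, Csnk1e and Fbxl21, modifiers of clock protein stability, had log2 fold changes between -0.08 and 0.16 in 6 libraries and between -0.01 and 0.25 in 5 and were not called.

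Over the 26 core clock genes together, 1 was called in 6 libraries (Nr1d2, lower), 2 in 5 (Nr1d2 lower, Npas2 higher) and 10 in 4 (8 lower, 2 higher), against 0.00716%, 0.0355% and 1.83% of all genes. The comparison of 4 was singled out with clock values known, so its 10 calls are a description and no independent evidence. Groups did not overlap in 8 of the 26, with Npas2 and Cry1 higher and Per3, Nr1d1, Nr1d2, Rorb, Dbp and Hlf lower, against 12.1% of all genes. The labels give no harvest times, so a difference in level and one in clock phase cannot be told apart.

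**Figure D2:**
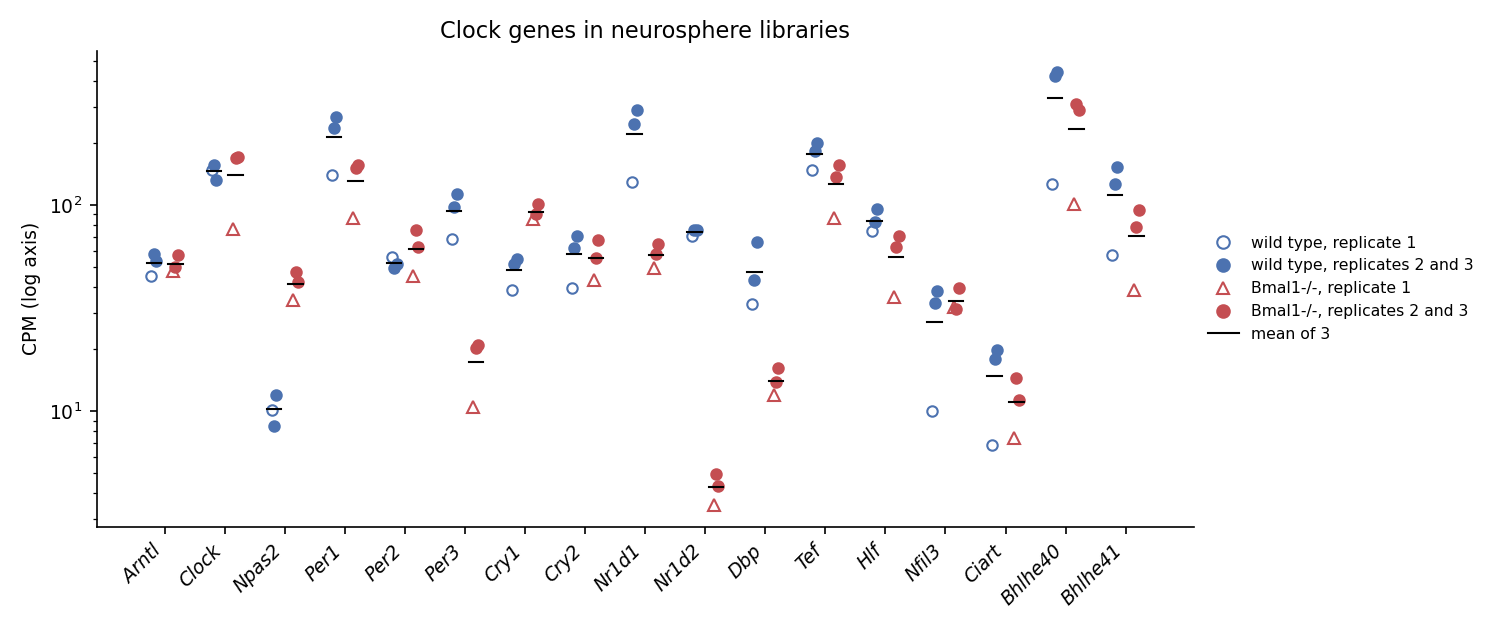
CPM of 17 clock genes (log axis) in each neurosphere library, with open symbols for replicate 1 of each genotype, filled symbols for replicates 2 and 3, and a bar for the mean of 3. Nr1d2, Per3, Nr1d1 and Dbp lie lower and Npas2 and Cry1 higher in all 3 Bmal1-/- libraries, while Arntl overlaps between the genotypes and Bhlhe40 is lowest in the replicate 1 library of both.

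Outside the clock, the genes that passed the test without Bmal1-/- replicate 1 were Ucp2, Arhgef3 and Inpp4b. Ucp2, a carrier of the inner mitochondrial membrane on chromosome 7 at 100493337 to 100499629, had 26.0, 35.1 and 33.6 CPM in wild type and 207, 108 and 127 CPM in Bmal1-/-. It rose by 1.90 ± 0.15 on the log2 scale in 5 libraries (edgeR adjusted p = 0.0184), and its log2 fold change in 6 was 2.22 ± 0.28 (adjusted p = 0.110). Bmal1-/- replicate 1 was the highest of all 6, and the groups did not overlap with or without it. Ucp2 overlaps Dnajb13 on the other strand. Arhgef3, a guanine nucleotide exchange factor of small GTPases on chromosome 14 at 27114461 to 27403916, had 9.45, 14.5 and 12.2 CPM against 35.5, 54.4 and 56.9 CPM and rose by 2.21 ± 0.18 in 5 libraries (adjusted p = 0.0184). Inpp4b, a phosphoinositide phosphatase on chromosome 8 at 81342266 to 82134312, had 18.5, 21.1 and 20.6 CPM in wild type and 3.20, 6.2 and 5.24 CPM in Bmal1-/- and fell by 1.81 ± 0.16 in 5 libraries (adjusted p = 0.0305). In 6 libraries the edgeR adjusted p of Arhgef3 and of Inpp4b was also 0.110. In 4 libraries Ucp2 and Arhgef3 were called higher and Inpp4b lower (edgeR adjusted p = 1.01e-06, 1.05e-06 and 3.31e-05). Leaving out wild-type replicate 2 or 3 or Bmal1-/- replicate 2 or 3 from the 5 ended the calls of Ucp2, Arhgef3 and Inpp4b (edgeR adjusted p from 0.054 to 0.878), and 1 or 2 genes were then called in all. Their log2 fold changes stayed between 1.78 and 2.01 for Ucp2, 2.17 and 2.36 for Arhgef3 and -1.94 and -1.69 for Inpp4b. The call of Npas2 ended without wild-type replicate 2 or either Bmal1-/- library (edgeR adjusted p 0.059 to 0.432), at log2 fold changes of 2.01 to 2.22. Without Bmal1-/- replicate 2 or 3 that group holds 1 library, which the fit assumes to vary like the wild-type libraries.

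Further genes with the smallest p in each direction did not reach the edgeR threshold in 6 or 5 libraries. Each lay outside the other group's range in every library except where stated. Dll4, a Notch ligand, had 1.33, 2.08 and 1.52 CPM in wild type and 7.55, 6.35 and 6.80 CPM in Bmal1-/- (4.2-fold in the mean). Acta2, an actin of contractile cells, had 6.93 to 8.65 CPM against 18.7 to 28.4 CPM (2.83-fold). Cdc42ep3, an effector of the GTPase CDC42, had 13.4 to 18.3 CPM against 34.1 to 42.6 CPM, and Gm13889 had 10.5 to 14.1 against 28.0 to 39 CPM. Like Nr1d1, 2 of these genes overlap a gene model on the other strand, Gm14207 for Dll4 and Gm17315 for Cdc42ep3. Kcna10, a potassium channel gene, rested on 9 reads in wild type and 43 in Bmal1-/-. Their edgeR adjusted p-values lay between 0.11 and 0.439 in 6 libraries and between 0.12 and 0.66 in 5. In 4 libraries Dll4, Acta2, Cdc42ep3 and Gm13889 were called higher (edgeR adjusted p from 0.000519 to 0.0016), and Kcna10 was not called (0.0906).

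On the lower side, Cyp24a1, which encodes the enzyme that breaks down vitamin D hormone, had 8.92, 3.26 and 2.89 CPM in wild type and 0.419, 0.362 and 0.623 CPM in Bmal1-/-, a mean 10.7-fold lower with wild-type replicate 1 far above the other 2. Nrn1, encoding the membrane-anchored protein neuritin, had 55.1 to 62.8 CPM against 27.4 to 34.6 CPM. It overlaps Fars2 on the other strand, and 26.2% of the 50-base stretches of the Nrn1 transcript also occur in Fars2. Crispld2, a secreted protein gene, had 23.4 to 35.9 CPM against 10.3 to 13.4 CPM. Scara3, a scavenger receptor gene, had 13.3 to 17.7 CPM against 6.23 to 8.49 CPM, and Cdh19, a cadherin gene, 23.5 to 33.1 CPM against 6.08 to 14.2 CPM. Ppp1r3e, a glycogen-targeting phosphatase subunit, had 13.1 to 19.8 CPM against 1.42, 5.22 and 3.48 CPM. Il17rd, an inhibitor of FGF signalling, had 12.5 to 15.9 CPM in wild type and 19.9, 33.8 and 35.1 CPM in Bmal1-/-, and lies next to Arhgef3 on chromosome 14, with 0.0755 Mb between their starts. Nhsl1 was the exception to the separation, at 88.2 to 94.1 CPM in wild type, 58.5 CPM in Bmal1-/- replicate 1 and 149 and 148 CPM in the other 2. In 4 libraries each gene of this paragraph from Cyp24a1 to Nhsl1 was called (edgeR adjusted p from 0.000474 to 0.0129). Il17rd and Nhsl1 were higher and the others lower.

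**Figure D3:**
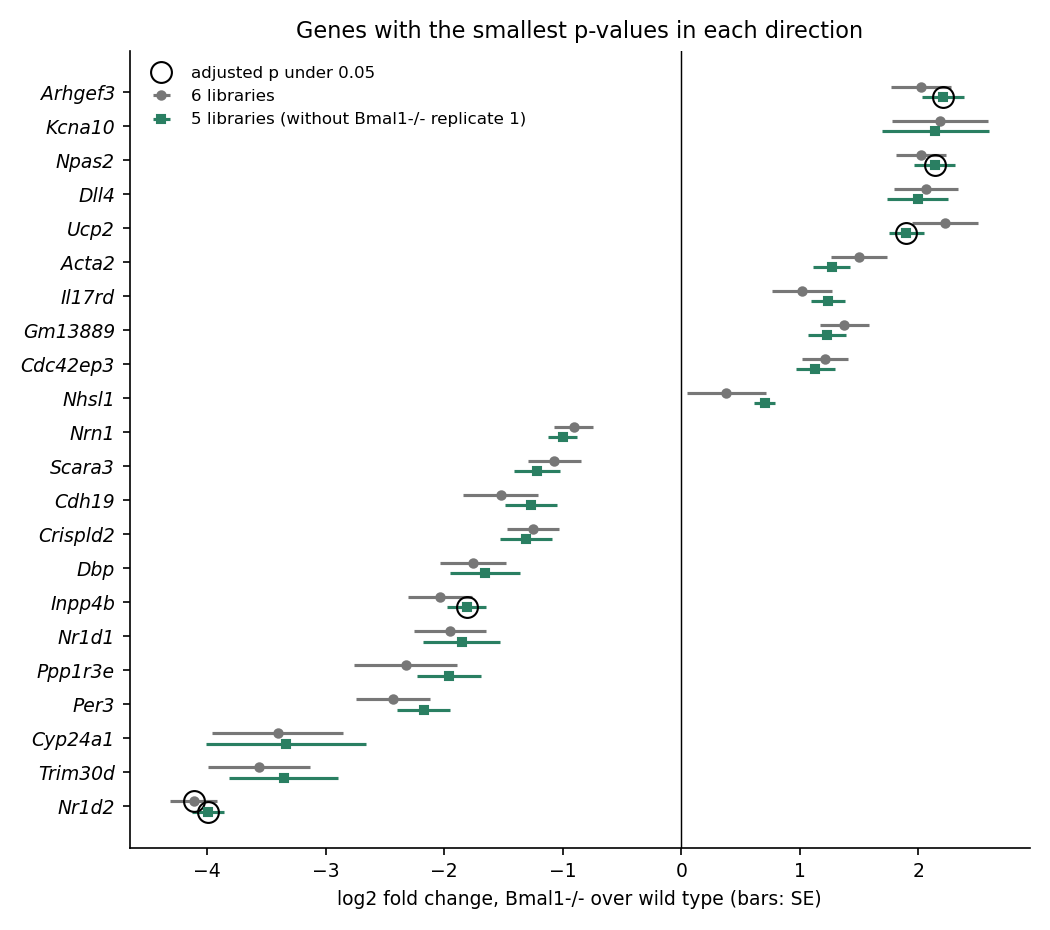
Log2 fold change of Bmal1-/- over wild type (x axis, bars are SE) for genes with the smallest p in each direction, with 6 libraries in grey and 5 in green, and a ring where the edgeR adjusted p is under 0.05. Nr1d2 is ringed in both comparisons at -4.11 and -3.99, and Npas2, Ucp2, Arhgef3 and Inpp4b in that of 5 libraries; Trim12a and Trim34b, with a group at or near 0 counts, are not drawn.

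Several of the genes with small p lay on chromosome 7, the chromosome of Arntl. Trim12a, Trim30d and Trim34b, members of the TRIM family of ubiquitin ligases, start 8.88, 8.71 and 8.85 Mb before the Arntl start, and Ucp2 starts 12.7 Mb before it. Trim12a had 70 reads over the 3 wild-type libraries and 0 over the 3 Bmal1-/- libraries, at least 23-fold lower with 3 counts over the group as the floor (the 95% counting interval of the ratio of Bmal1-/- over wild type reaches up to 0.0549). Trim30d had 108 reads against 9, and Trim34b had 1 against 51, a ratio of 51.8 with a 95% counting interval of 8.89 to 2085. Trim34a, the near copy of Trim34b, had 135 reads against 37. As 59.0% of the 50-base stretches of the Trim34b transcript occur in Trim34a, counts of this pair are uncertain. None of the 4 was called in 6 or 5 libraries, with edgeR adjusted p-values of 0.11 for Trim12a and Trim30d and 0.218 for Trim34b in 6, and of 0.142, 0.156 and 0.364 for Trim12a, Trim30d and Trim34b in 5. DESeq2 called Trim12a, Trim30d and Trim34b in 6 libraries (adjusted p = 8.71e-05, 5.80e-05 and 0.0242) but not Trim34a (0.0831). In 5 libraries DESeq2 called Trim30d (adjusted p = 0.00173) and not Trim34a (0.316), and gave no adjusted p for Trim12a and Trim34b. In 4 libraries Trim12a and Trim30d were called lower and Trim34b higher (edgeR adjusted p = 0.00366, 0.0059 and 0.0215). Trim34a was not called in 4 (0.0538).

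In windows of 10 Mb, the stretch of chromosome 7 from 100 to 110 Mb held 14 of 78 tested genes, 17.9%, at an unadjusted p under 0.05 in 6 libraries, against 3.02% of all genes. It was the highest share of the 225 windows with at least 20 genes; the next was 10.3% and the median 2.60%. In 5 libraries it held 16 of 79, 20.3%, again the highest, of 227 windows, with the next at 13.0%. The window from 110 to 120 Mb, which holds Arntl, had 2 of 56 in 6 libraries and 7 of 56 in 5. Of the 14 genes, 9 had higher and 5 lower values in Bmal1-/-, and, named after their values were seen, they were Ucp2, Coa4, Stard10, Trim68, Trim34b, Trim12c, Timm10b, Taf10 and Lmo1 (higher) and Arhgef17, Pgap2, Trim34a, Trim12a and Trim30d (lower). Timm10b, Trim12c and Lmo1 were not under 0.05 in 5 libraries (edgeR unadjusted p = 0.074, 0.081 and 0.102), while Mrpl48, Fam168a, Inppl1, Cnga4 and Eif3f were. Of the 50-base stretches of Taf10 49.1% also occur in other genes, among them Ilk, and of those of Trim12c 34.4%, among them Trim5 and Trim12a. On the other strand Timm10b overlaps Arfip2 and Taf10 overlaps Ilk. Coa4, a mitochondrial assembly factor, had 3.85 to 4.99 CPM in wild type and 7.11 to 12.8 CPM in Bmal1-/-, and Arhgef17, an exchange factor of small GTPases, had 99.3 to 113 CPM against 53.2 to 72 CPM.

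**Figure D4:**
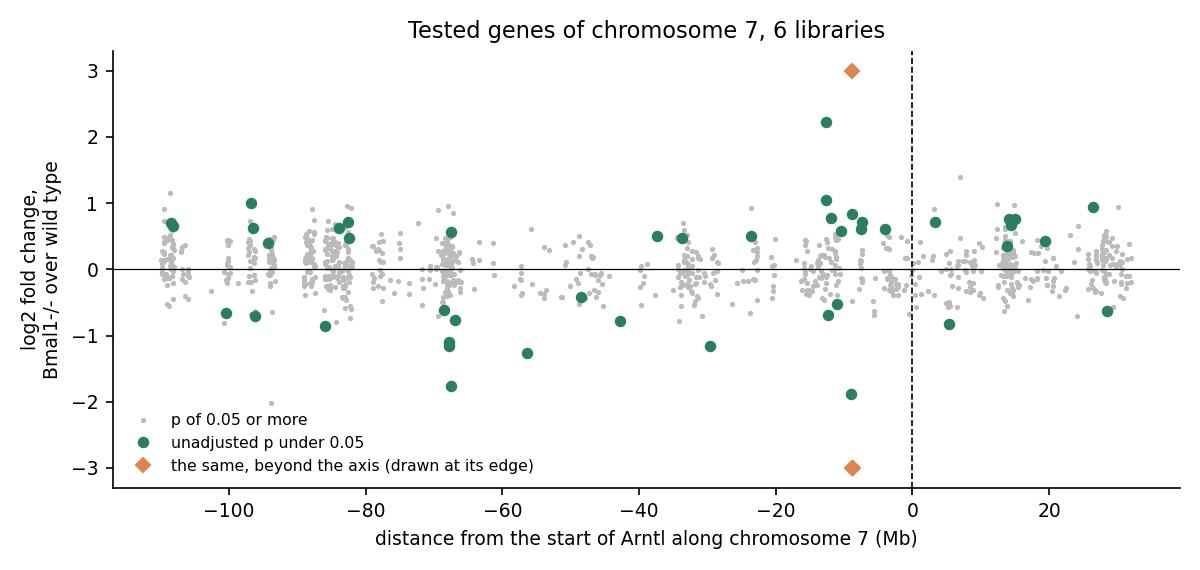
Log2 fold change of every tested gene of chromosome 7 in 6 libraries (y axis) by the distance of its start from that of Arntl in Mb (x axis, dashed line at 0), with green points at an unadjusted p under 0.05 and orange diamonds for such genes beyond the axis. Between 13 and 3 Mb before Arntl lie the 14 genes of the densest window, Ucp2 at 2.22 among them.

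The libraries read as neural stem and glial cultures by their marker genes. Levels per kilobase of transcript in wild type were 825 ± 140 CPM (SD, n = 3) for Fabp7, a radial glia fatty acid binding protein, 690 ± 156 for Vim and 602 ± 43.3 for the glutamate transporter Slc1a3, with Sox2 at 228 ± 48.3 and Nes at 119 ± 48.5. Precursor markers of the oligodendrocyte lineage were also present (Ptprz1 at 539 ± 30.1 and Olig1 at 440 ± 130). Markers of blood, endothelium and choroid plexus were low: 5 of 6 blood genes, Ttr and Ly6c1 were listed at 0 in all 6 libraries, and the 14 endothelial markers summed to 20.1 to 30.6 CPM. Otx2, also made in choroid plexus, had 2.97 to 9.84 CPM. Choroid plexus genes shared a list of 16 with ependymal genes, of which 9 stayed under 1 CPM. Its highest members per kilobase in wild type were Foxj1 at 36.4 ± 1.82 and Cfap126 at 3.84 ± 0.387. The ribosomal protein gene Rpl26, which every cell uses, was listed at 0 in all 6 as well, so a listed 0 need not mean that no RNA was there. Fewer cells of a type and less RNA per cell cannot be told apart in these bulk libraries.

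Of the 26 stem and progenitor markers, edgeR called none in 6 or 5 libraries. DESeq2 called Sox3 in both (adjusted p = 0.00463 and 0.000203). In 6 libraries 4 had an unadjusted edgeR p under 0.05 with higher values in Bmal1-/-: Sox3, Fabp7, Id1 and Id3. Among all genes 1.95% did so. In 5 libraries 4 of the 26 again did, against 2.14% of all genes, but not Id1 and Id3 (edgeR unadjusted p = 0.060 and 0.065). The log2 fold changes of Fabp7, Id1 and Id3 were 1.19, 0.62 and 0.63 in 6 libraries and 0.71, 0.38 and 0.35 in 5. Their transcripts are 880, 1160 and 1278 bases long. Sox3, a transcription factor of neural progenitors, had 84.6, 56.6 and 65.2 CPM in wild type and 223, 138 and 134 CPM in Bmal1-/- (edgeR adjusted p = 0.668 in 6 libraries and 0.364 in 5), and rose by 1.16 ± 0.10 in 4 (adjusted p = 3.3e-05). Fabp7 had 759, 830 and 590 CPM against 2592, 999.9 and 1386 CPM, highest in Bmal1-/- replicate 1. The median of the list was 0.02 in 6 libraries and 0.14 in 5, with 14 and 20 of 26 members above 0. In the oligodendrocyte lineage, Olig1 had 1267.5, 725 and 864 CPM in wild type and 1887, 1331 and 1109.5 CPM in Bmal1-/-. Cnp, a myelin enzyme, had 379 to 390 CPM against 696, 552 and 469 CPM, and the edgeR adjusted p of both was 0.798 in 6 libraries, with 0.9997 for Olig1 and 0.902 for Cnp in 5. Olig1 and Olig2, the latter named after its values were seen, rose by 0.62 and 0.50 in 4 (edgeR adjusted p = 0.0211 and 0.0289). The myelin list as a whole had a median of -0.02 in 6 libraries and -0.19 in 5, and the astrocyte list 0.07 and 0.02. Dlx5 and Igfbpl1 led the neuroblast list, with 12 of 18 members above 0 in 6 libraries and 13 of 18 in 5, none called.

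Microglial genes varied with a single library. The 15 markers summed to 134 to 144 CPM in wild type, to 363 CPM in Bmal1-/- replicate 1 and to 165 and 70.3 CPM in the other 2. C1qa, a complement component, had 62.6, 18.3 and 5.86 CPM in the Bmal1-/- libraries against 12.9 to 15.9 CPM in wild type, and C1qb followed the same order. The list's median was 0.44 with 6 libraries, 10 of 13 members above 0, and -0.31 with 5, none above 0. Markers of contractile and stromal cells summed to 52.9 to 85.7 CPM in wild type and 80.8 to 115 CPM in Bmal1-/-; Acta2 and Tagln led them, Tagln, which overlaps Pcsk7 on the other strand, with 9.61 to 14.8 CPM against 19.9 to 27.9 CPM, while 8 of the 12 members tested had log2 fold changes below 0 in 6 libraries. The part of this list in the Acta2 result was not tested.

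The 30 S phase genes, which act in replication, had a median log2 fold change of 0.19 in 6 libraries, -0.02 in 5 and 0.49 in 4. Their summed level was 1976, 1027 and 896 CPM in wild type and 1581, 1411 and 1217 CPM in Bmal1-/-, so that wild-type replicate 1 was above all other libraries and wild-type replicates 2 and 3 below all Bmal1-/- libraries. None was called in 6 or 5 libraries, and Rrm2, Cdt1 and Uhrf1, named after their values were seen, rose in 4 (edgeR log2 fold changes 0.58, 0.78 and 0.50). Of the 28 mitotic genes, 21 had log2 fold changes above 0 in 6 libraries and all 28 in 5 and in 4, with medians of 0.11, 0.21 and 0.30. Their summed level was 3513, 3043 and 2780 CPM in wild type and 2358, 3370 and 3565 CPM in Bmal1-/-. The groups thus overlapped, with Bmal1-/- replicate 1 the lowest and wild-type replicate 1 above Bmal1-/- replicate 2. Cdc20, an activator of the anaphase-promoting complex, had 64.4 to 70.6 CPM in wild type and 81.4 to 88.2 CPM in Bmal1-/-, without overlap (edgeR adjusted p = 0.798 in 6 libraries, 0.90 in 5), and rose by 0.42 in 4 (adjusted p = 0.0328). Cdc20 overlaps Elovl1 on the other strand. Cenpa, the centromeric histone, had 33.3 to 34.7 CPM against 42.5 to 58.5 CPM. Among cell cycle inhibitors, Cdkn2c had 50.6 to 58.2 CPM against 66.8 to 74.0 CPM and did not pass the test in either comparison.

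Genes of cholesterol synthesis and uptake had medians of 0.16 in 6 libraries and 0.17 in 5, with 17 and then all 24 members above 0 and none called. In each comparison 5 members had an unadjusted p under 0.05, all higher in Bmal1-/-, against 1.95% and 2.14% of all genes. Fdps, farnesyl diphosphate synthase, had 48.3, 47.0 and 45.8 CPM in wild type and 96.7, 58.3 and 59.5 CPM in Bmal1-/-, and Tm7sf2, a sterol reductase, 16.6 to 26.6 against 28.8 to 50.1 CPM. Pmvk and Mvd, mevalonate pathway enzymes, had log2 fold changes of 0.64 and 0.45 in 6 libraries and 0.40 and 0.36 in 5. Cytosolic ribosomal protein genes had a median of 0.46 in 6 libraries and 0.11 in 5, with 72 and 58 of 78 above 0, and nuclear-encoded respiratory chain genes 0.41 and 0.11, with 73 and 67 of 75. The median transcript of these 2 lists is 1100 and 1141 bases long, and their summed level was highest in Bmal1-/- replicate 1, at 9870 CPM for ribosomal proteins against 4998 to 6428 CPM in the other 5 libraries. The 22 antioxidant genes had medians of 0.10 in 6 libraries, 14 of them above 0, and -0.07 in 5, 8 above 0, and none was called. With the smallest p in 6, Slc7a11, the cystine transporter, had 286, 206 and 185 CPM in wild type and 71.2, 158 and 133 CPM in Bmal1-/-, and Gclc, which acts in glutathione synthesis, 325 to 356 against 260 to 290 CPM.

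Signalling lists held few genes with small p and none called by edgeR in 6 or 5 libraries. DESeq2 called Dll4 in both (adjusted p = 1.85e-07 and 7.21e-06). In the Notch pathway 2 of 22 had an unadjusted p under 0.05 in 6 libraries, against 3.02% of all genes, the ligand Dll4 and the glycosyltransferase Mfng (7.06 to 10.9 CPM in wild type, 14.2 to 17.2 CPM in Bmal1-/-). Sfrp1, a secreted Wnt antagonist, had 22 to 23.2 CPM in wild type and 13.7 to 15.8 CPM in Bmal1-/-, and Bmp7, a BMP ligand, 101 to 111 CPM against 117 to 149 CPM, both without overlap and not passing. The Hedgehog list had a median of -0.27 in 6 libraries and -0.09 in 5, the FGF list -0.13 and 0.00, and the extracellular matrix list, whose median transcript is 7054 bases long, -0.15 and 0.01. In the ERK response list, read here because the cultures grow in EGF, medians were -0.09 and -0.06; Etv4, an ETS factor, had 121 to 141 CPM in wild type and 145 to 184 CPM in Bmal1-/-, and Dusp4, a MAP kinase phosphatase, 53.7 to 71.0 against 14.3, 50.8 and 38.8 CPM.

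Stress and response lists had no called gene in 6 or 5 libraries either. Trib3, a pseudokinase of the ATF4 response, had 8.97, 19.9 and 22.3 CPM in wild type and 9.80, 10.1 and 10.3 CPM in Bmal1-/-, so wild-type replicate 1 was the lowest of all 6 and the groups overlapped. With both replicate 1 libraries left out, Trib3, Herpud1 and Asns fell, the latter 2 named after their values were seen. The p53 list had medians of -0.02 and -0.03 in 6 and 5 libraries, with Mdm2, the p53 ubiquitin ligase, at 155 to 178 CPM against 138 to 140 CPM. Interferon and antigen presentation genes had 0.23 and 0.04, with Usp18 at 1.26 to 1.76 CPM against 2.01 to 3.51 CPM, highest in Bmal1-/- replicate 1. Nr4a2, an orphan nuclear receptor among the immediate early genes, had 6.21, 11.1 and 12.7 CPM in wild type and 4.14, 6.30 and 7.16 CPM in Bmal1-/-, and it fell with both replicate 1 libraries left out; the medians of that list were 0.01 and 0.07. Glucocorticoid response genes, on which Per1 is listed, had medians of -0.32 and -0.11, glycolysis and hypoxia genes -0.03 and -0.09, and genes of NAD metabolism 0.06 and 0.00. Over the 35 lists with at least 6 tested members, medians ran from -0.50 for the E-box genes to 0.46 for ribosomal proteins in 6 libraries, and from -0.34 for the E-box genes to 0.30 for the ROR and REV-ERB targets in 5.

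**Figure D5:**
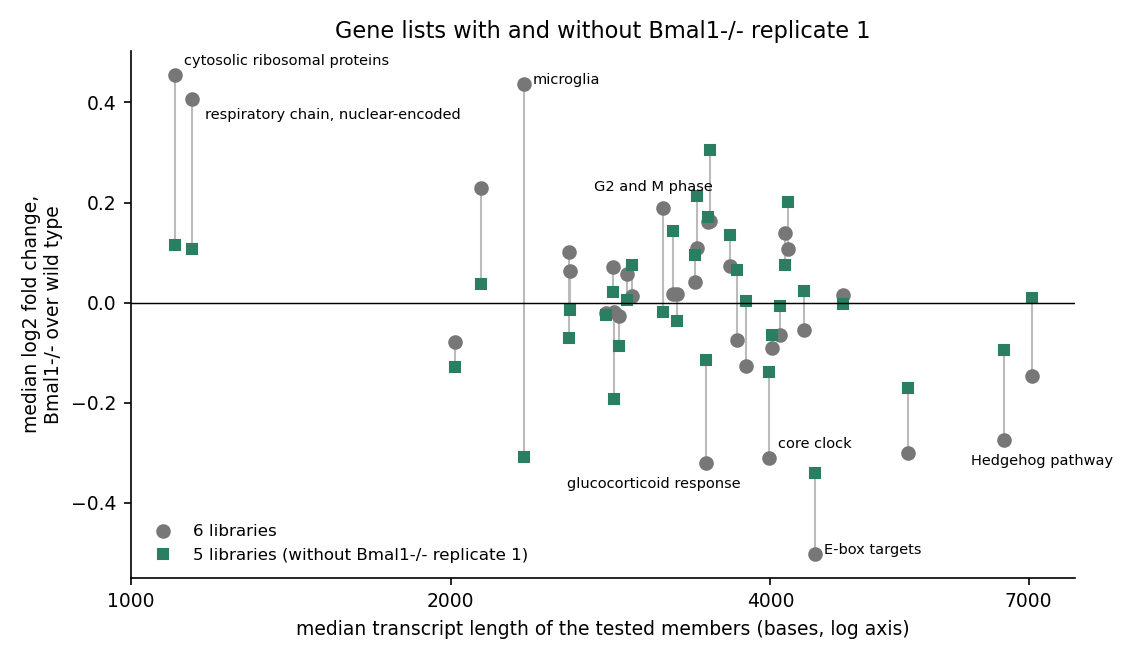
Median log2 fold change of each gene list (y axis) by the median transcript length of its tested members (x axis, log scale), with grey circles for 6 libraries and green squares for 5 joined by a line. The short ribosomal and respiratory lists move from 0.46 and 0.41 to 0.11, the microglial list from 0.44 to -0.31, and the E-box genes stay lowest at -0.50 and -0.34.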

How the data were processed

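Raw counts per gene were deposited by the authors for each library, as a table of reads per gene symbol. Per the submitters' processing notes reads were aligned with STAR 2.7.1a to mm10, and the sources used here do not give the annotation or counting settings. The strand-ignoring count (column 2) was used without the 4 summary rows; reads in no gene were 14.5% to 16.6% of all reads. The shares of the stranded columns lay near 50%, and the multimapping row held 0 reads. CPM was computed here from each library's total over the tested genes of the 6-library comparison, scaled by its TMM factor (0.967 to 1.094). Genotypes were compared with edgeR 4.0.16 (quasi-likelihood, robust, TMM, filterByExpr, Benjamini-Hochberg, threshold 0.05) over neurosphere libraries only. DESeq2 1.42.0, limma-voom 3.58.1, other filters and scalings, a replicate block, a transcript length offset, a spread shared with the callosum libraries and each library left out were alternatives. Transcript lengths (98.5% of 24411 symbols) came from GENCODE M21, gene positions (99.6%) and promoters from RefSeq GRCm38.p6. Genes named are the clock list, every called gene, the 10 with the smallest p in each direction with 6 and with 5 libraries, and leading members of each of 37 lists, with those of chromosome 7 and a few others where stated; a few genes of these sets are not reported here. The comparison, the genes and the lists were chosen with earlier results of these data known.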

Additional observations from a re-analysis of the deposited data

How the results depend on the processing

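Nr1d2 was called with 6 libraries under all 16 settings and with 5 under all 15, and the count of called genes moved with the settings. With 6 libraries, where 1 gene was called, there were 5 with no filter, 34 with DESeq2, 2 with limma-voom, 2 with the replicate block, 4 with the length offset, 8 with the replicate block and length offset together and 19 with the spread shared with callosum libraries. Leaving out 1 library gave 1 to 5 called genes, 5 without Bmal1-/- replicate 1. With 5 libraries, where 5 genes were called, there were 14 with no filter, 44 with DESeq2, 262 with the replicate block, 591 with the replicate block and length offset and 26 with the shared spread; leaving out 1 of them gave 1 to 255, 255 without wild-type replicate 1. The cause was not tested. Deviations of same-numbered libraries from their group means correlated at 0.28, -0.01 and 0.31 for replicates 1, 2 and 3, and wild-type replicate 2 correlated best with Bmal1-/- replicate 3 (0.27), so the numbers were not taken to pair the libraries. With 5 libraries the block leaves wild-type replicate 1 without a partner.

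Some log2 fold changes changed sign. Those of C1qa and C1qb, both above 1 in 6 libraries, did so without Bmal1-/- replicate 1. In 6 libraries (log2 fold change) the length offset gave 0.042 for Arntl, 0.25 for Clock and -0.0029 for Csnk1e, and with the block added 0.049, 0.26 and -0.0032, and 0.015 for Cry2. Leaving out 1 library gave -0.10 to 0.072 for Arntl, -0.14 to 0.33 for Arntl2, -0.24 to 0.22 for Clock, -0.26 to 0.12 for Cry2, -0.056 to 0.66 for Nfil3, -0.019 to 0.030 for Csnk1e, -0.056 to 0.66 for Fbxl21, -0.23 to 1.52 for C1qa, -0.28 to 1.67 for C1qb, -0.044 to 0.60 for Rrm2 and -0.18 to 0.48 for Uhrf1. Scaling by the size factors of DESeq2 reversed no named gene. No setting moved the median of all genes by over 0.1. Depth limits genes under a few reads a library, where 3 reads are 0.152 to 0.172 CPM, and these limits cover counting error only.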
